A study of Homo sapiens with 9 samples.

Results

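The EGF receptor family, its ligands and the receptor inhibitor ERRFI1 were followed in RNA sequencing of HaCaT cells, a spontaneously immortalised line of human keratinocytes. The 10 genes were chosen by name, with earlier results of these data known, out of 58676 genes in the count table, and all 10 were found. Shares of the 10 given beside shares of all tested genes are therefore a description and no test of the family. They are the ligand genes AREG, EREG, HBEGF, TGFA, BTC and EPGN, the receptor genes EGFR, ERBB2 and ERBB3, and ERRFI1. Cells received 1% DMSO as the control, 250 nM CDDO-Me or 10 µM PRL-295 in DMEM for 14 h, and each group had 3 libraries. CDDO-Me, also called bardoxolone methyl, is an electrophilic activator of the antioxidant transcription factor NRF2. PRL-295 is given by its code name, and the doses of the compounds differ. The series title concerns non-electrophilic NRF2 activators and the healing of wounds. DMSO is labelled for the control only, and nothing states whether each library is a culture of its own, so p-values measure the spread between these samples, which may be technical.

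Ligands of this family are made as membrane-anchored precursors, and proteases such as ADAM17 release the part that binds the receptor. EGFR, ERBB2, ERBB3 and ERBB4 are receptor tyrosine kinases that work as pairs. ERBB2 has no known ligand of its own, and ERBB3 binds neuregulins and has little kinase activity. In epidermis, keratinocytes make both EGFR and its ligands, and this autocrine loop drives proliferation and the migration that closes wounds. ERRFI1, also called MIG6, binds the EGFR kinase domain and inhibits it.

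Libraries held 23383800 to 32942156 counted reads, with 14543 (CDDO-Me 1) to 23271 (CDDO-Me 2) genes detected by a read. The keratinocyte markers KRT5, KRT14, TP63, CDH1, SFN and PERP were all measured, with a summed level of 12570 to 13340 CPM in DMSO, 15470 to 17250 in CDDO-Me and 10160 to 10920 in PRL-295. CPM is a count scaled to the size of its library, with TMM factors. Of these 6 markers, 3 rose with CDDO-Me against DMSO, as did 4.65% of all tested genes. KRT5, KRT14 and PERP passed as lower in the direct comparison of PRL-295 with CDDO-Me, where 0.684% of all tested genes did. The markers' part in the results below was not tested. In bulk RNA, fewer cells of a type and less RNA per cell cannot be told apart. Of 5 immune markers, 1 passed the filter on low counts, and the list summed to 0.768 to 1.62 CPM in DMSO, 0 to 0.381 in CDDO-Me and 0.888 to 1.98 in PRL-295. Fibroblast markers summed to at most 13.1 CPM in any library, nearly all of it COL1A1, melanocyte markers to at most 7.98 and endothelial markers to at most 2.56. The GC content of tested genes correlated with how far a library departed from the average library, at 0.182 to 0.253 in DMSO, -0.516 to -0.0226 in CDDO-Me and -0.304 to 0.256 in PRL-295. The GC trend thus separates CDDO-Me from DMSO, while the PRL-295 group is split. PRL-295 2 (0.256) lay close to the DMSO libraries, and PRL-295 1 (-0.304) and PRL-295 3 (-0.0656) lay below them. Values with a correction for GC content and gene length are given where they change a call.

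Of the 6 ligand genes, 4 lie in one stretch of 486214 bases on chromosome 4 (hg38). EPGN (ENSG00000182585) spans 74308473 to 74315307, EREG (ENSG00000124882) 74365143 to 74388751 and AREG (ENSG00000109321) 74445134 to 74455009, all on the plus strand. BTC (ENSG00000174808) spans 74744759 to 74794686 on the minus strand. The only other annotated genes lying wholly in that stretch were a pair of antisense genes, with 0 and 1 reads over all libraries. RefSeq promoter windows (GRCh38.p14, 250 bases before to 50 after a start site) were found for 9 of the 10 genes, and ERBB3 had none. The 250 bases before the start sites of EPGN, EREG and AREG are shown because AREG and EPGN passed the test with CDDO-Me while EREG, which lies between them, did not, a difference that was not tested itself. That of HBEGF is shown because it passed the test with PRL-295. Capitals mark the TATA motif TATAAA and the cyclic AMP response element TGACGTCA.

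EPGN, chr4:74308220-74308469, plus strand: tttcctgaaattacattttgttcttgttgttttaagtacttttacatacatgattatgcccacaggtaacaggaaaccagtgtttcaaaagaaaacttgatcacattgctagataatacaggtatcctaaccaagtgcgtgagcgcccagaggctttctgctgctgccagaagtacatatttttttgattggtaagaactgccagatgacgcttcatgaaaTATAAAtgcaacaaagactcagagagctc

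EREG, chr4:74364895-74365144, plus strand: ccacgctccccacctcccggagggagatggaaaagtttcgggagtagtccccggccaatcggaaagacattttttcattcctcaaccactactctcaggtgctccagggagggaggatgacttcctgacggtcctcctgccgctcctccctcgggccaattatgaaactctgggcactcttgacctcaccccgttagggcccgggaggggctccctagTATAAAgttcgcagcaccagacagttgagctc

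AREG, chr4:74444886-74445135, plus strand: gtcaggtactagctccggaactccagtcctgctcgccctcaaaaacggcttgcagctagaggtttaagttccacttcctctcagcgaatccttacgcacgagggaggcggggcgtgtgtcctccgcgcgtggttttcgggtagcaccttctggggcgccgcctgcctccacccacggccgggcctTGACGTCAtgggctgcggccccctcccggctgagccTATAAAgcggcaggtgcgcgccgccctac

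HBEGF, chr5:140346604-140346853, minus strand: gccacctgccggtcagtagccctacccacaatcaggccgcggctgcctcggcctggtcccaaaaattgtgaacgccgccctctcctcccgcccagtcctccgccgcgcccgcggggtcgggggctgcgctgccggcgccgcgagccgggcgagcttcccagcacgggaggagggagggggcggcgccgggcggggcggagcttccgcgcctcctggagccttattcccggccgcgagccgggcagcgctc

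The motif TATAAA, searched on both strands, begins 29 bases before the start site in EPGN, 32 in EREG and 29 in AREG. BTC has no match, so 3 of the 4 ligand genes on chromosome 4 hold the motif. With an alternative window of EGFR, 4 of the 9 genes with a window hold it. Of all 35116 promoter windows of the same length, 11.5% do. TATAAA and TGACGTCA were added to the search later, so their shares describe these windows and are no test. The motif TGACGTCA begins 65 bases before the AREG start, and 1.85% of all windows hold it. GC content of the 300-base windows was 37.7% in EPGN, 57.7% in EREG, 66.3% in AREG and 75% in HBEGF. The core of the antioxidant response element that NRF2 binds, TGACNNNGC on either strand, was in none of the windows of the 9 genes and in 13.3% of all windows. The pattern TGANTCA, a loose form of the AP-1 element with any middle base, was in 1 window of ERBB2 and in an alternative window of EGFR. Of all windows, 7.71% held this loose pattern. The EGFR matches read TGAGTCA and TGACTCA, with the G or C of the AP-1 element in the middle. The ERBB2 match reads TGATTCA and lacks it. These matches describe the letters in short windows, and no binding was measured.

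With DMSO the 10 genes spanned a wide range of levels per length, given as the deposited FPKM, a count scaled to gene length and library total. EGFR was highest at 32.8 ± 3.87 FPKM (SD, n = 3 here and below). TGFA at 21.6 ± 1.87 and ERBB2 at 21.3 ± 2.68 FPKM followed, with libraries that overlapped. HBEGF stood at 12.5 ± 1.81, ERBB3 at 8.23 ± 0.995, AREG at 5.25 ± 1.12 and ERRFI1 at 4.24 ± 1.08 FPKM, the last pair overlapping. EREG at 0.755 ± 0.350, BTC at 0.522 ± 0.628 and EPGN at 0.227 ± 0.152 FPKM were lowest and overlapped one another. The ligand transcripts with the highest level in control cells were thus those of transforming growth factor alpha (TGFA) and heparin-binding EGF (HBEGF).

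**Figure D1:**
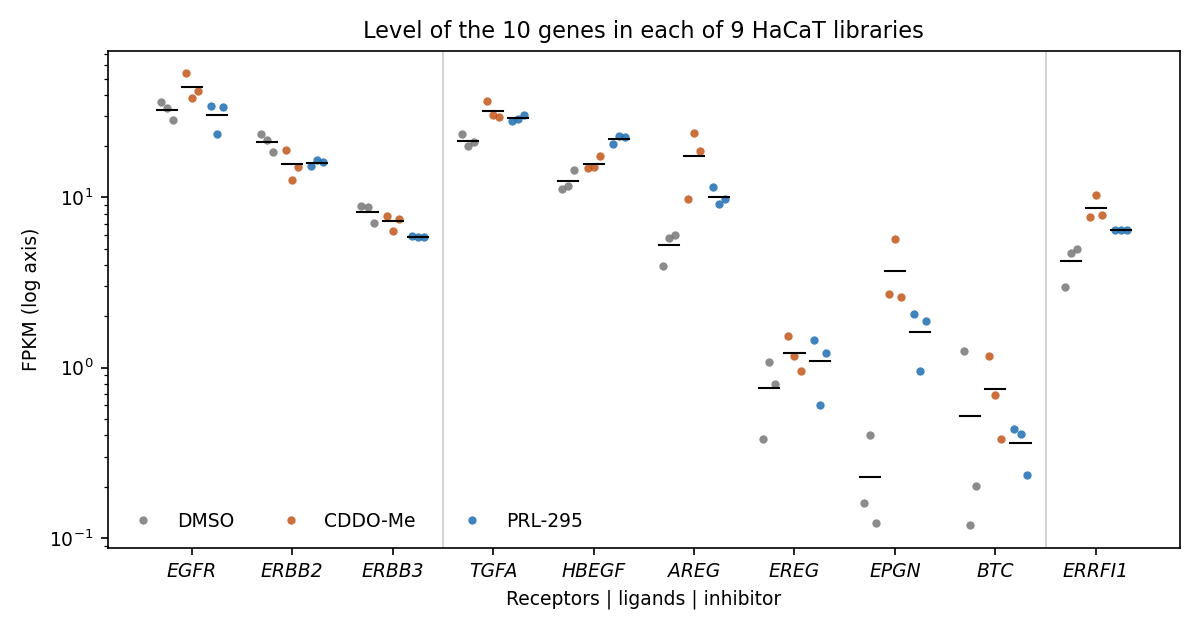
FPKM on a log axis for the 10 genes in each of the 9 libraries, with points for libraries, black bars for group means (n = 3) and colours for DMSO, CDDO-Me and PRL-295. EPGN libraries with DMSO lie at 0.122 to 0.402 FPKM and those with CDDO-Me at 2.59 to 5.74, while EGFR is the highest gene in each group's mean.

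CDDO-Me against DMSO asked which of these genes the electrophilic activator changed. The ligand genes EPGN, AREG and TGFA and the inhibitor gene ERRFI1 rose, and no gene of the family fell by the test. The edgeR quasi-likelihood test called 4 of the 10 genes at an adjusted p below 0.05, all higher, and 9.22% of all 16239 tested genes were called, 4.65% higher and 4.57% lower. Libraries of the groups did not overlap for 6 of the 10 genes, all higher with CDDO-Me, and for 31.8% of all tested genes (15.5% higher, 16.3% lower). The median log2 fold change of the 10 genes was 0.56, against 0.01 over all tested genes.

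EPGN, which encodes epigen, had the largest change of the family. Libraries 1 to 3 of DMSO had 0.283, 0.737 and 0.219 CPM (7, 24 and 7 reads), and those of CDDO-Me had 4.91, 10.3 and 4.65 CPM (157, 303 and 110 reads). Every CDDO-Me library was above every DMSO library. The change was 15.7-fold (log2 3.98, 95% interval 2.70 to 5.25, adjusted p = 0.0026). Without DMSO 2 the log2 fold change was 4.71, and the call held in all 9 fits that left out 1 library (adjusted p up to 0.02). EPGN passed the filter on low counts through the compound libraries, since only 1 DMSO library reached its minimum of 0.365 CPM.

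AREG encodes amphiregulin, a ligand that keratinocytes release to act on their own EGFR. Its level was 6.40, 9.67 and 9.77 CPM with DMSO and 16.0, 38.9 and 30.5 CPM with CDDO-Me. The groups did not overlap, and CDDO-Me 1 was the lowest of its group. AREG rose 3.30-fold (log2 1.72, interval 1.05 to 2.39, adjusted p = 0.00771), a call kept in all 9 fits that left out 1 library, with adjusted p up to 0.0445.

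TGFA rose less, from 115, 100.2 and 104 CPM to 182, 149 and 147 CPM, again without overlap. Its log2 fold change was 0.58 (interval 0.32 to 0.84, adjusted p = 0.0135). The call ended without DMSO 2 (adjusted p = 0.0794), without DMSO 3 (0.056) and with the GC and length correction (0.0585).

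The other ligands did not pass. HBEGF, on chromosome 5 at 140332843 to 140346631, had 33.2, 35.6 and 43.5 CPM with DMSO and 44.6, 45.1 and 52.1 CPM with CDDO-Me. These groups did not overlap, and the log2 fold change was 0.34 (interval 0.02 to 0.65, adjusted p = 0.166). With the GC and length correction it was 0.51 with an adjusted p of 0.0174. EREG, the epiregulin gene between EPGN and AREG, had overlapping groups, with 2.15, 6.23 and 4.56 CPM against 8.76, 6.65 and 5.42 CPM (log2 0.68, interval -0.24 to 1.61, adjusted p = 0.336). BTC, which encodes betacellulin, stood at 3.44, 0.338 and 0.562 CPM with DMSO and 3.28, 1.93 and 1.06 CPM with CDDO-Me, also overlapping (log2 0.54, interval -1.28 to 2.37, adjusted p = 0.733). In BTC, DMSO 1 with 85 reads stood far above the other DMSO libraries (11 and 18 reads). CDDO-Me 1 with 105 reads was the highest of its group (57 and 25 in the others).

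Among the receptors none passed the test with CDDO-Me. EGFR (chromosome 7, 55019021 to 55256620) had 461, 441 and 368 CPM with DMSO and 694, 490 and 539 CPM with CDDO-Me. Every CDDO-Me library was higher, with a log2 fold change of 0.44 (interval 0.07 to 0.81, adjusted p = 0.127, and 0.0178 with no filter on low counts). ERBB2 (chromosome 17, 39687914 to 39730426) had 240, 226 and 188 CPM against 197, 129.8 and 155 CPM, and CDDO-Me 1 lay within the DMSO range. Its log2 fold change was -0.44 (interval -0.78 to -0.11, adjusted p = 0.094), and without CDDO-Me 1 it was -0.61 with an adjusted p of 0.0118. With no filter on low counts its adjusted p was 0.0339. ERBB3 (chromosome 12, 56079857 to 56103505) had 75.3, 76.5 and 60.7 CPM against 67.4, 54.6 and 64.2 CPM, with overlap (log2 -0.19, interval -0.49 to 0.10, adjusted p = 0.404).

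Since EGFR and ERBB2 lay on opposite sides of no change, their FPKM ratio was taken in each library. It was 1.53, 1.55 and 1.55 with DMSO and 2.81, 3.01 and 2.76 with CDDO-Me. With PRL-295 it was 2.23, 1.42 and 2.13, so that PRL-295 2 lay below the DMSO libraries and the other two above. The ratio of 1.54 ± 0.014 with DMSO, 2.86 ± 0.131 with CDDO-Me and 1.93 ± 0.444 with PRL-295 is a description, with no test. EGFR transcripts had a GC content of 47.5% and ERBB2 transcripts 57.5%. With the GC and length correction the log2 fold change of EGFR exceeded that of ERBB2 by 0.63 with CDDO-Me, against 0.88 without it, and with PRL-295 by 0.03 against 0.31.

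Whether reads were counted by strand is not given in the sources used here. MIEN1 and PGAP3 overlap ERBB2 on the other strand, and if counting ignored strand, reads in the overlap cannot be told apart. MIEN1 (log2 -0.52, adjusted p = 0.143) and PGAP3 (log2 -0.32, adjusted p = 0.378) did not pass with CDDO-Me. EGFR-AS1, antisense to EGFR, averaged 27.2 reads per library, and AL034417.4, antisense to ERRFI1, 15.0.

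ERRFI1 (ENSG00000116285; chromosome 1, 8004404 to 8026308) is induced by growth factor signalling as a feedback inhibitor of EGFR. Its level was 12.3, 20.0 and 20.7 CPM with DMSO and 32.2, 42.7 and 32.8 CPM with CDDO-Me, with no overlap. It rose 2.03-fold (log2 1.02, interval 0.56 to 1.49, adjusted p = 0.0148). The call ended without DMSO 1 (0.0532), DMSO 2 (0.0512) or CDDO-Me 2 (0.061).

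PRL-295 against DMSO put the same question for the other compound, with the same DMSO libraries. HBEGF rose, and it was the only one of the 10 genes to pass, with 0.684% of all tested genes called (0.462% higher, 0.222% lower). Libraries did not overlap for 7 of the 10 genes, 5 higher and 2 lower (ERBB2 and ERBB3) with PRL-295, and for 27.2% of all tested genes (13.5% higher, 13.7% lower). The median log2 fold change was 0.51, against -0.01 over all tested genes.

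HBEGF is known as a ligand that is quickly made and shed at wound margins. It stood at 62.1, 71.4 and 69.1 CPM in PRL-295 libraries 1 to 3, each above all DMSO and all CDDO-Me libraries. The rise over DMSO was 1.81-fold (log2 0.85, interval 0.54 to 1.17, adjusted p = 0.0264). The log2 fold change stayed between 0.78 and 0.98 when 1 library was left out. The call nevertheless ended without DMSO 1 (0.172), DMSO 2 (0.165), PRL-295 1 (0.0782), PRL-295 2 (0.0819) or PRL-295 3 (0.14).

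EPGN was at 3.73, 1.79 and 3.44 CPM with PRL-295 (91, 47 and 93 reads), each above every DMSO library. Its change was 7.10-fold (log2 2.83, interval 1.59 to 4.07), with an adjusted p of 0.0512. It passed with the GC and length correction (log2 2.41, adjusted p = 0.0382), in a fit of only the DMSO and PRL-295 libraries (0.0182), without CDDO-Me 1 (0.0153) and without CDDO-Me 2 (0.0313). Of the 9 fits that left out 1 library, EPGN passed in only 2, with adjusted p up to 0.281. Without DMSO 2 its log2 fold change was 3.56. AREG had 18.9, 15.5 and 16.3 CPM with PRL-295, above every DMSO library (log2 0.97, interval 0.31 to 1.63, adjusted p = 0.197). TGFA had 139, 147 and 154 CPM, again above every DMSO library (log2 0.46, interval 0.21 to 0.72, adjusted p = 0.12). Without CDDO-Me 1, whose spread enters the shared fit, the adjusted p was 0.0264 for AREG and 0.0252 for TGFA, and with DESeq2 it was 0.042 and 0.0239. Each passed in only 1 of the 9 fits that left out 1 library, with adjusted p up to 0.667 for AREG and 0.442 for TGFA.

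EREG at 8.32, 3.58 and 7.10 CPM overlapped DMSO (log2 0.55, interval -0.37 to 1.47, adjusted p = 0.657). BTC at 1.23, 1.18 and 0.666 CPM lay inside the DMSO range (log2 -0.49, interval -2.33 to 1.36, adjusted p = 0.892), and without DMSO 1 its log2 fold change was 1.18. Both intervals include 0.

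No receptor passed with PRL-295. EGFR had 443, 314 and 449 CPM, with PRL-295 2 below all DMSO libraries and the others among them (log2 -0.07, interval -0.44 to 0.30, adjusted p = 0.926). ERBB2 had 158, 176 and 168 CPM, each below every DMSO library (log2 -0.38, interval -0.72 to -0.05, adjusted p = 0.32). With the GC and length correction the ERBB2 value was -0.08. ERBB3 had 51.3, 52.0 and 51.5 CPM, each also below every DMSO library (log2 -0.46, interval -0.75 to -0.16, adjusted p = 0.173, and 0.0387 with DESeq2). ERRFI1 had 27.0, 27.7 and 27.4 CPM, above every DMSO library (log2 0.63, interval 0.17 to 1.09, adjusted p = 0.231). PRL-295 libraries of ERBB3 and ERRFI1 thus lay within 1 CPM of each other while their distance from DMSO did not pass the adjusted test.

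**Figure D2:**
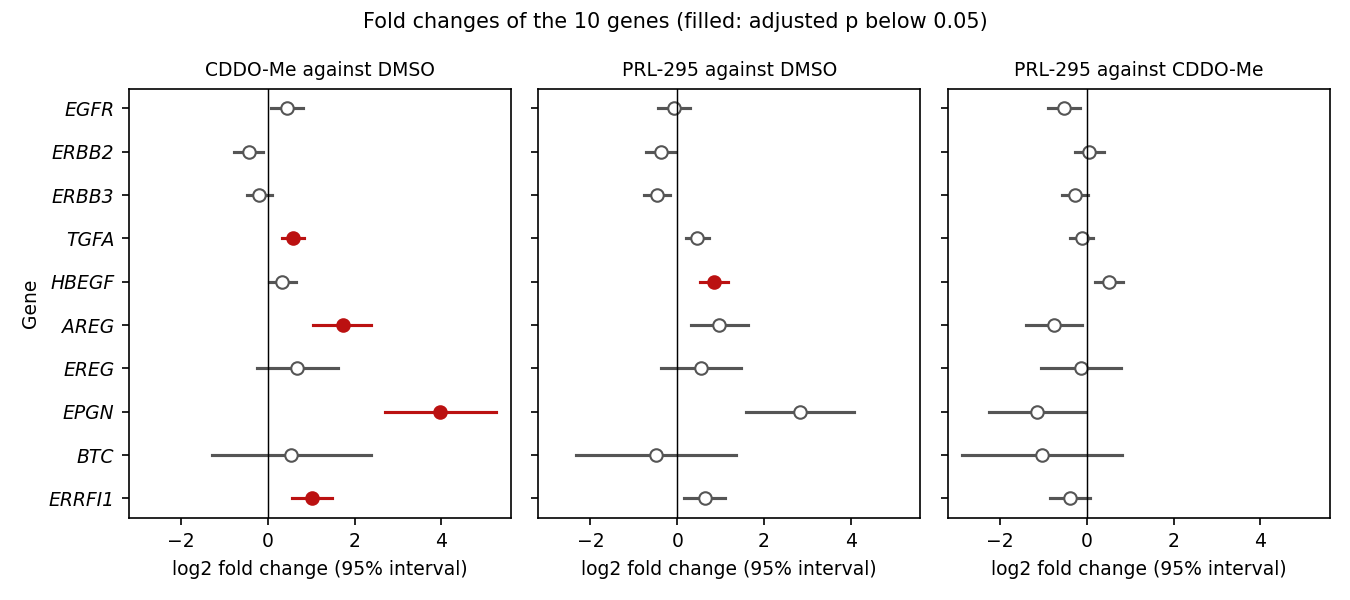
Log2 fold change of each of the 10 genes in the 3 comparisons, with 95% intervals from the edgeR fit of 9 libraries, filled where the adjusted p was below 0.05. EPGN has the largest change against DMSO for both compounds, at 3.98 and 2.83, HBEGF is filled for PRL-295 only, and no gene is filled in the direct comparison.

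The direct comparison of PRL-295 with CDDO-Me tested the difference between the compounds as given, at their different doses. None of the 10 genes passed the edgeR test, with 1.59% of all tested genes called (0.905% higher, 0.684% lower with PRL-295). DESeq2 called 1 of the 10, HBEGF, and 1035 of the 16239 genes that passed the filter. At an unadjusted p below 0.05 in edgeR stood 4 of the 10, AREG, HBEGF, EPGN and EGFR, and 2796 of the 16239 tested genes. Groups did not overlap for 5 of the 10 genes, 1 higher and 4 lower with PRL-295, and for 24.6% of all tested genes (14.4% higher, 10.2% lower). HBEGF was higher with PRL-295, 67.5 ± 4.82 against 47.3 ± 4.19 CPM (log2 0.52, interval 0.20 to 0.83, adjusted p = 0.103, and 0.0225 with DESeq2). EPGN was 2.99 ± 1.05 against 6.62 ± 3.18 CPM (log2 -1.15, interval -2.26 to -0.03, adjusted p = 0.28).

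AREG was 16.9 ± 1.81 CPM with PRL-295 and 28.5 ± 11.6 CPM with CDDO-Me, where CDDO-Me 1 alone lay in the PRL-295 range (log2 -0.75, interval -1.41 to -0.10, adjusted p = 0.225). Without CDDO-Me 1 the AREG difference was -1.04 (adjusted p = 0.0427), and with the GC and length correction -0.95 (0.0272). Every PRL-295 library had less EGFR than every CDDO-Me library (log2 -0.51, interval -0.89 to -0.14, adjusted p = 0.155, and 0.0107 with no filter on low counts). ERRFI1 had a log2 difference of -0.39 (interval -0.85 to 0.07) and TGFA of -0.12 (interval -0.38 to 0.14). These intervals show which differences the data allow, and a miss of the threshold does not show that the compounds act alike on a gene.

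Across all 3 groups, 5 of the 10 genes passed an F test for any difference, against 5.68% of tested genes. They were EPGN (adjusted p = 0.00777), HBEGF (0.0155), AREG (0.0207), TGFA (0.0308) and ERRFI1 (0.0394). EGFR (0.131), ERBB2 (0.15), ERBB3 (0.125), EREG (0.513) and BTC (0.697) did not pass. The genes that passed were thus 4 ligand genes and the inhibitor, but a difference between ligands and receptors was not tested. The unadjusted p of the F test was 0.0207 for EGFR, 0.027 for ERBB2 and 0.0186 for ERBB3. For the ligand genes EREG and BTC it was 0.279 and 0.488. The 10 genes were chosen with earlier results known, and EPGN passed the filter on low counts through the compound libraries. The share of 5 in 10 is therefore a description.

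The summed level of the 6 ligand genes per length was 40.6, 39.0 and 42.8 FPKM with DMSO, 66.7, 77.0 and 70.0 with CDDO-Me and 64.2, 62.8 and 66.2 with PRL-295. Every compound library was above every DMSO library. The sum was 1.75 times the DMSO mean with CDDO-Me and 1.58 times with PRL-295, values given without a test. With CDDO-Me, AREG made up 40.1% of the added FPKM, TGFA 35.3%, EPGN 11.4% and HBEGF 10.9%. With PRL-295, HBEGF made up 40.6%, TGFA 32.0%, AREG 20.7% and EPGN 5.94%. The share of AREG in the sum was 12.9% ± 2.74 with DMSO, 24.1% ± 8.54 with CDDO-Me and 15.7% ± 1.92 with PRL-295. HBEGF took 30.5% ± 3.22, 22.3% ± 2.64 and 34.3% ± 2.19 in the same order. TGFA was the largest share in all 9 libraries, from 39.4% to 58.3%.

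**Figure D3:**
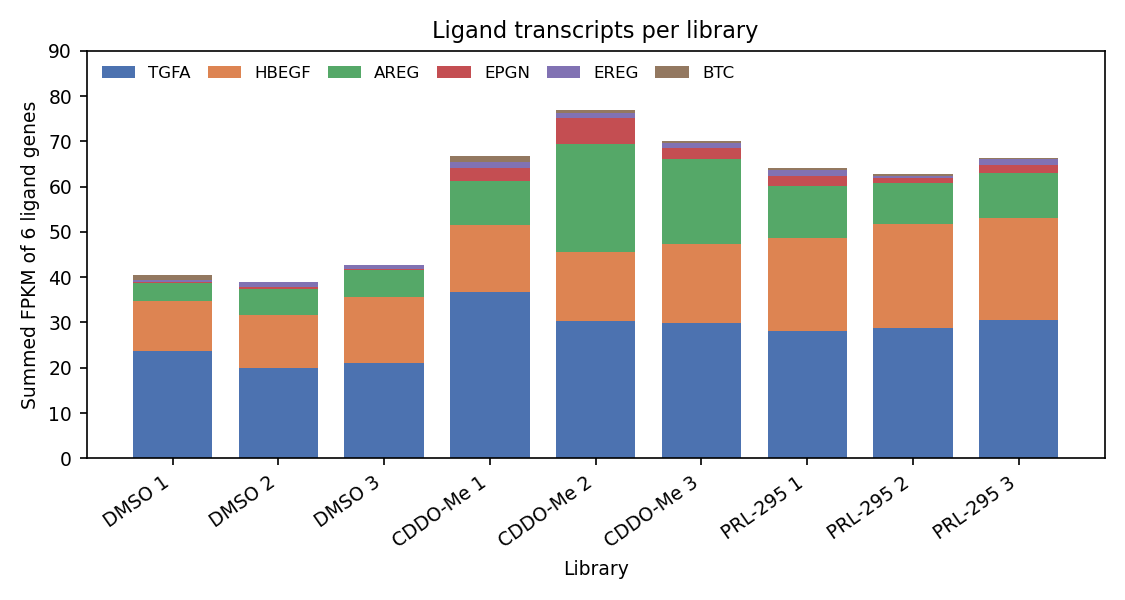
Stacked bars of the FPKM of the 6 ligand genes in each library, starting at 0. The 3 DMSO bars reach 39.0 to 42.8 and the 6 compound bars 62.8 to 77.0, with more AREG in CDDO-Me 2 and CDDO-Me 3 and more HBEGF in the PRL-295 libraries.

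Of the family's other genes, NRG1, which encodes neuregulin 1 (a ligand of ERBB3 and ERBB4), passed with CDDO-Me. It stood at 140, 146 and 144 CPM with DMSO, 298, 289 and 294 with CDDO-Me and 212, 173 and 175 with PRL-295. It rose 1.04 on the log2 scale with CDDO-Me (interval 0.81 to 1.27, adjusted p = 0.000283) and stood below the CDDO-Me level with PRL-295 (log2 -0.66, adjusted p = 0.0112). The direct difference did not pass without CDDO-Me 3, PRL-295 2 or PRL-295 3 (adjusted p up to 0.11), or in a fit of those 6 libraries only (0.074). Of the 6 genes in that list, only NRG1 and NRG2 passed the filter on low counts. EGF was counted only in DMSO 2 and CDDO-Me 2, at 0.645 and 0.815 CPM, and ERBB4 reached at most 0.185 CPM, near the limit of 0.0911 to 0.128 CPM that 3 reads represent.

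All 10 genes of ligand release were tested. With CDDO-Me, 1 rose and 2 fell, against 4.65% higher and 4.57% lower of all tested genes, and with PRL-295 none passed. ADAM17, the main protease that frees these ligands, had 27.4, 27.6 and 22.5 CPM with DMSO and 48.7, 56.1 and 43.3 CPM with CDDO-Me (log2 0.94, adjusted p = 0.00506). With the GC and length correction its value was 0.45 with an adjusted p of 0.241. TIMP3, an inhibitor of ADAM17, fell from 18.1 to 6.21 CPM (log2 -1.54, adjusted p = 0.0354), and FRMD8, a partner of the iRhom proteins that carry ADAM17, fell from 109 to 76.9 CPM (log2 -0.50, adjusted p = 0.0322). With the GC and length correction neither passed, at -1.45 for TIMP3 (adjusted p = 0.0564) and -0.21 for FRMD8 (0.282). Leaving out DMSO 1, DMSO 3, CDDO-Me 2, CDDO-Me 3 or PRL-295 3 also ended both calls, and leaving out DMSO 2 ended that of FRMD8.

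In the list of receptor adaptors and the RAS-ERK cascade, 3 of 21 tested genes rose and 1 fell with CDDO-Me. Of all tested genes, 4.65% rose and 4.57% fell. None of the list passed with PRL-295, and its median log2 fold change was 0.04 with CDDO-Me. PIK3CA, a catalytic subunit of PI3 kinase, rose from 9.79 to 25.8 CPM (adjusted p = 0.0486), the adaptor gene GAB1 from 5.04 to 11.2 (0.0161) and NRAS from 21.8 to 44.9 (0.00883). The adaptor gene GRB2, named here beyond the rule for named genes, fell from 174 to 134.5 CPM (0.0465). None of these 4 calls held with the GC and length correction, which gave log2 fold changes of 0.64 for PIK3CA (adjusted p = 0.0661), 0.55 for GAB1 (0.222), 0.59 for NRAS (0.163) and -0.19 for GRB2 (0.195). Leaving out DMSO 1 also ended all 4, with adjusted p of 0.0524 to 0.162.

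In the list of receptor turnover and negative feedback, 5 of 22 tested genes rose with CDDO-Me and none fell. Of all tested genes, 4.65% rose and 4.57% fell. The list's median was 0.38 against 0.01 over all genes, and the lists were chosen with earlier results of these data known. CBLB, a ubiquitin ligase that marks activated EGFR for degradation, had 9.11, 5.68 and 7.27 CPM with DMSO and 22.0, 26.4 and 24.96 CPM with CDDO-Me (interval of the log2 change 1.27 to 2.20, adjusted p = 0.000886). The phosphatase genes DUSP4 (75.7 to 155 CPM, adjusted p = 0.000887) and DUSP5 (15.2 to 30.8 CPM, 0.0252), whose products act on MAP kinases, rose too. CBL and UBASH3B were the others, named beyond the rule, and UBASH3B did not pass with the GC and length correction (log2 0.31, adjusted p = 0.351). The CBLB, DUSP4 and CBL calls held in all 9 fits that left out 1 library, while DUSP5 lost its call without DMSO 2, DMSO 3 or CDDO-Me 2. With PRL-295 none of the 22 passed, with a median of 0.14. Between the compounds CBLB differed, at 12.4 CPM with PRL-295 and 24.5 with CDDO-Me (adjusted p = 0.0419). Of the 9 fits that left out 1 library, only that without CDDO-Me 1 kept this call, and with the GC and length correction the log2 difference was -0.61 (adjusted p = 0.148).

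Among 16 transcripts that ERK signalling is known to induce, 4 rose with CDDO-Me and 1 with PRL-295, and none fell. Of all tested genes, 4.65% rose with CDDO-Me and 0.462% with PRL-295. FOSL1, which encodes the AP-1 subunit FRA1, had 261, 290 and 294 CPM with DMSO, 312, 293 and 342 with CDDO-Me and 496, 548 and 502 with PRL-295. It rose with PRL-295 (log2 0.87, interval 0.65 to 1.09, adjusted p = 0.00231) and was higher there than with CDDO-Me (log2 0.71, adjusted p = 0.00694, and 0.0631 in a fit of those 6 libraries only). The FOSL1 values, like those of HBEGF, were highest in the PRL-295 libraries. HMGA2 (62.9 to 106 CPM, adjusted p = 0.0259), ETV5 (30.0 to 49.0, 0.0232) and JUN (39.1 to 61.1, 0.0177) rose with CDDO-Me. Each of these 3 calls ended without DMSO 1 and without DMSO 2, among other libraries, with adjusted p up to 0.106. With the GC and length correction HMGA2 stood at 0.14 on the log2 scale (adjusted p = 0.604). EGR1, an immediate early gene named beyond the rule, had 28.1 CPM with DMSO, 25.1 with CDDO-Me and 29.6 with PRL-295 (adjusted p = 0.52 and 0.906). Over these 5 lists, 17 genes were called with CDDO-Me, and 9 of the calls ended with the GC and length correction.

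**Figure D4:**
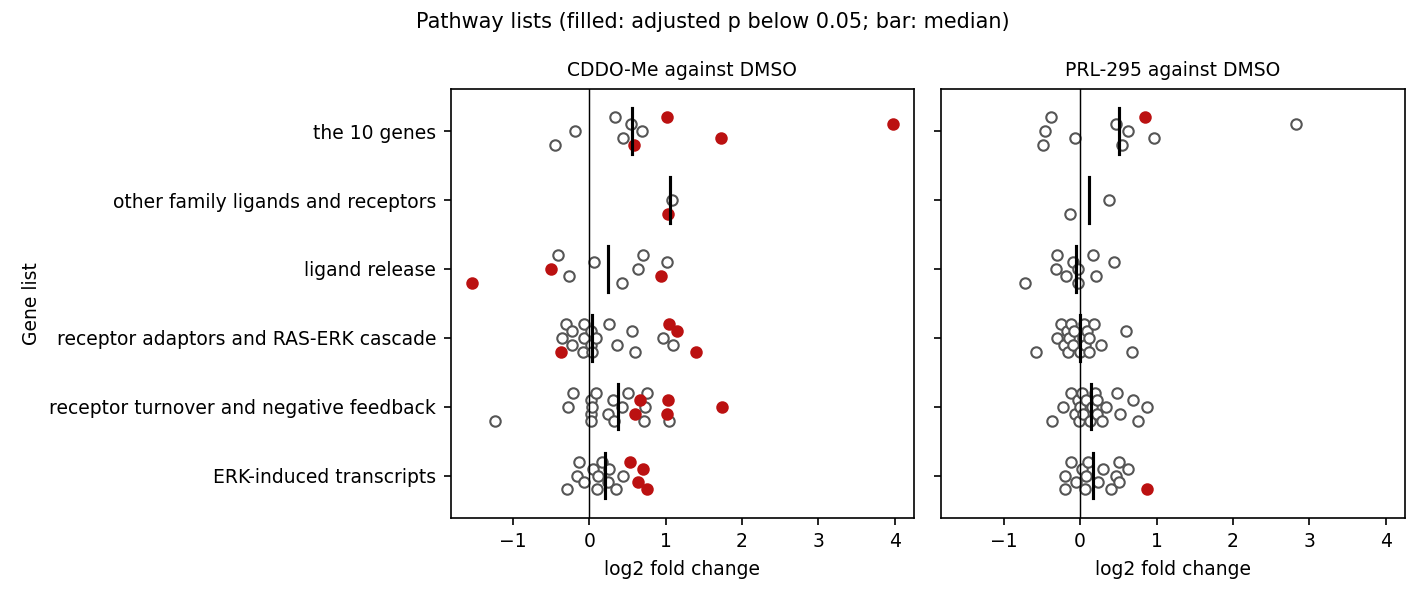
Log2 fold changes of the tested genes of 5 pathway lists and of the 10 genes, against DMSO, for CDDO-Me on the left and PRL-295 on the right. Filled points had an adjusted p below 0.05 and the bar is the list's median. With CDDO-Me filled points stand in every list, and with PRL-295 they are HBEGF and FOSL1.

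EPGN had the smallest F test p of the family, so the genes with the most similar profile were sought for it. Likeness was the root mean square difference over the 9 libraries of log2 CPM centred on each gene's DMSO mean, among 13120 genes whose mean reached 1 CPM. The 5 nearest were the zinc finger gene ZNF559 (0.652), the long noncoding RNA gene LUCAT1 (0.711) and the aldo-keto reductase genes AKR1C1 (0.717), AKR1C2 (0.743) and AKR1C3 (0.783). AKR1C1 averaged 38.3 CPM with DMSO, 801 with CDDO-Me and 409 with PRL-295, and LUCAT1 1.22, 30.6 and 13.7. ZNF559, the nearest, averaged only 0.233, 2.51 and 1.445 CPM, so its profile rests on low counts. The DMSO mean of EPGN itself rests on 7, 24 and 7 reads, and EPGN passed the filter through the compound libraries. All distances depend on that mean and are uncertain. The 5 nearest genes were picked for their likeness, so their levels are a description only. The AKR1C genes are closely related in sequence, so the share of reads given to each is uncertain.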

How the data were processed

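Per the labels' protocols, the authors mapped paired reads with STAR 2.5 and used HTSeq 0.6.1 for counting, and hg38 comes from the submitters' processing notes. Annotation release and strand setting are not given in the sources used here. The deposited gene counts are whole numbers and not normalized. The deposited FPKM equalled count over gene length and library total for 100% of values within 0.1%.

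The main test was edgeR's quasi-likelihood method (version 4.0.16 under R 4.3.3) on the counts, in 1 fit of all 9 libraries, with TMM scaling and filterByExpr, which kept 16239 genes. Benjamini-Hochberg adjustment covered all tested genes of a comparison. The procedure was tested on simulated data. GC content came from the longest GENCODE transcript of each gene. Replicates of a group differed by more than sampling noise.

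The 10 genes, the 5 pathway lists and the motifs were chosen with earlier results of these data known. The 10 genes were named whatever their values, and up to 3 called genes with the largest change were named per list. One further listed gene is not reported here by name. TATA and cyclic AMP motifs were added later. The floor of 3 reads covers counting error only. Alternatives were DESeq2 1.42.0, limma 3.58.1 on log2 FPKM, other scalings and filters, a GC and length correction, a replicate block, 6 libraries only and leaving out each library.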

Additional observations from a re-analysis of the deposited data

How the results depend on the processing

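Over 11 alternative settings, 302 of the 327 values of the 10 genes that had an adjusted p kept their direction and their side of the threshold, as did 249 of 270 when 1 library was left out. Most of these values had not passed in the main fit, and calls were less stable. With 1 library left out, TGFA with CDDO-Me passed in 7 of 9 fits, ERRFI1 with CDDO-Me in 6 and HBEGF with PRL-295 in 4. The count of 4 family genes called with CDDO-Me became 6 with no filter on low counts, 5 higher and 1 (ERBB2) lower, and was 2 to 5 over the fits that left out 1 library, and the EPGN and AREG calls held in all 9 of them. For PRL-295 against DMSO the count of 1 became 4 with DESeq2, 4 with no filter, 2 with the GC and length correction and 4 with 6 libraries only, and it ran from 0 to 4 with 1 library left out. For PRL-295 against CDDO-Me the count of 0 became 1 with DESeq2, 2 with no filter, 1 with the GC and length correction and 1 when that was joined to the block, and it ran from 0 to 1. The cause of these shifts was not tested.

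Counts over all genes moved more. For CDDO-Me against DMSO the count of 1497 was 2616 with DESeq2, 2509 with no filter and 864 with a replicate block, and 401 to 2803 with 1 library left out. For PRL-295 against DMSO the count of 111 was 607 with DESeq2, 825 with no filter, 60 with the block, 210 with the GC and length correction, 173 with both and 650 with 6 libraries only, and ran from 33 to 589. For PRL-295 against CDDO-Me the count of 258 was 1035, 1250, 156, 540, 465 and 45 in the same order of settings, and ran from 60 to 285. The main calls split into 755 higher and 742 lower for CDDO-Me. That split was 1676 and 833 with no filter on low counts, and 560 and 891 with limma at a pseudocount of 1. The 75 higher and 36 lower calls for PRL-295 were 658 and 167 with no filter and 50 and 10 with the block. DESeq2 gave no adjusted p for EPGN and BTC in PRL-295 against DMSO, or for BTC between the compounds.

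Directions that reversed were all of values that had not passed. BTC with PRL-295 was 0.012 with limma at a pseudocount of 0.1, 0.040 with the replicate block and -0.95 to 1.18 with 1 library left out. EREG between the compounds was 0.085 with the GC and length correction, 0.097 with that and the block, and -0.38 to 0.15 with 1 library left out. ERBB2 between the compounds ran from -0.028 to 0.24 with 1 library left out, and EGFR with PRL-295 from -0.16 to 0.081. Same-numbered libraries of different groups correlated at -0.119 to 0.114 in their deviations from group means, and others at -0.129 to 0.128. The check thus gave no sign that the numbers pair the samples, but it could miss a small shared effect. The replicate block left the counts of family genes called at 4, 1 and 0. Low counts limit EPGN and BTC, with as few as 7 and 11 reads in a library.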
